A study of Drosophila melanogaster with 18 samples.

Results

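The 9 peptidoglycan recognition protein (PGRP) genes *PGRP-LA*, *PGRP-LB*, *PGRP-LC*, *PGRP-LE*, *PGRP-LF*, *PGRP-SA*, *PGRP-SB1*, *PGRP-SC2* and *PGRP-SD* were followed by name through the larval fat body transcriptomes of *Drosophila*, among 17575 genes with values. The tables held 13 PGRP genes in all, and the other 4 are described only by their levels. RNA-seq covered 12 libraries in 4 groups of 3. These were *4EHP* RNAi (*dcg-Gal4/uas-4EHP* RNAi) with dcg-Gal4/+ as its control, and *NELF-E* RNAi (*dcg-Gal4/uas-NELF-E* RNAi) with a *lacZ* RNAi control (*dcg-Gal4/uas-lacZ* RNAi). The dcg-Gal4/+ controls came from a cross to *w1118* in place of the RNAi line. A further 6 libraries came from TRIBE, an assay in which an RNA-binding protein fused to the editing enzyme ADAR leaves A-to-G marks on nearby transcripts, with 4EHP-ADAR in 3 libraries and a cap-binding mutant of 4EHP fused to ADAR in the other 3. All were from male larvae late in the third instar, and every RNA-seq group carried the dcg-Gal4 driver, which expresses UAS transgenes in the fat body. The methods give the same driver for the TRIBE constructs. According to the methods, *NELF-E* RNAi crosses were kept at a lower temperature than other crosses because the larvae otherwise died. The methods place every other cross at the standard temperature, whereas a supplementary legend describes *lacZ* RNAi flies reared at the lower one for another assay. Which held for the *lacZ* RNAi libraries is not stated, so knockdown and temperature cannot be told apart. Each replicate was RNA pooled from the fat bodies of several male larvae, unless otherwise stated.

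PGRPs are the proteins by which flies sense and degrade peptidoglycan, the cell wall polymer of bacteria. Some act as receptors or as regulators of receptors. *PGRP-LC* at the plasma membrane and *PGRP-LE* in the cytoplasm signal through the Imd pathway to the NF-κB factor Relish, and secreted *PGRP-SA* starts the protease cascade that activates Toll. Others, such as *PGRP-LB*, *PGRP-SB1* and *PGRP-SC2*, are amidases that cut peptidoglycan. The larval fat body is the main source of antimicrobial peptides and also secretes several PGRPs into the haemolymph. By these roles the members were divided into 6 receptors and receptor-like regulators (*PGRP-LA*, *PGRP-LC*, *PGRP-LE*, *PGRP-LF*, *PGRP-SA* and *PGRP-SD*) and 3 amidases.

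Some of the genes lie next to each other (dm6 coordinates, BDGP6.54 annotation). *PGRP-LA* (3L, 9334332 to 9338336), *PGRP-LC* (3L, 9338810 to 9348336) and *PGRP-LF* (3L, 9349609 to 9351489) followed each other on the plus strand with gaps of 473 and 1272 bases. *PGRP-SB1* (3L, 16727299 to 16727989, minus strand) lay 10 bases from *PGRP-SB2*. *PGRP-SD* (3L, 7651180 to 7651900) stood alone on the same arm. The exons of *PGRP-LF* overlapped those of *UGP*, which encodes a UDP-glucose pyrophosphorylase, on the opposite strand by 602 of 1355 bases. The strand setting of the read counting is not given in the sources used here, so reads of *PGRP-LF* and *UGP* cannot be told apart in the shared part. *UGP* was at 102 to 131 CPM in *lacZ* RNAi libraries, in which *PGRP-LF* was at 0.928 to 1.64 CPM. The exons of *PGRP-SD* overlapped those of *CG7492* by 35 bases.

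Values were deposited as CPM, the reads of a gene scaled to a common total in every library. The RNA-seq libraries held 59919649 to 173606470 reads on genes. Each library's CPM were also put on a common scale by the median ratio of their genes (scaled CPM), and the tests used this scale. The factors spanned 0.45 to 1.56. They were lowest in dcg-Gal4 control replicate 3 (0.45), *lacZ* RNAi replicate 2 (0.49) and *lacZ* RNAi replicate 3 (0.72). These libraries also had the fewest genes above 1 CPM (7853, 9335 and 9866, against 10307 to 10940 in the other 9) and the lowest sums over 10 testis markers (35.3, 371 and 901 CPM, against 1738 to 3155). The part of this in the results below was not tested. The median log2 fold change of all genes tested was 0.15 for *4EHP* RNAi against control (0.68 with CPM as deposited) and -0.05 for *NELF-E* RNAi against *lacZ* RNAi (0.65 with CPM as deposited), so the unscaled comparison starts from a shifted centre. Neither targeted transcript was clearly reduced. *eIF4EHP* was at 21.4, 14.8 and 18.1 CPM in the libraries labelled *4EHP* RNAi, against 26.6, 21.3 and 5.55 CPM in the controls, and *Nelf-E* was at 33.6, 35.0 and 32.3 CPM in the libraries labelled *NELF-E* RNAi, against 38.6, 12.8 and 20.7 CPM in *lacZ* RNAi. The groups overlapped for both genes (log2 fold change -0.28, SE 0.36, for *eIF4EHP* and -0.12, SE 0.25, for *Nelf-E*), and every direction below therefore rests on the labels. All 8 fat body markers were above 1 CPM in every library. Their sum was 146400 to 227500 CPM in libraries labelled *4EHP* RNAi, against 242200 to 370200 CPM in controls, without overlap, and 184400 to 274100 CPM in libraries labelled *NELF-E* RNAi, against 254900 to 362300 CPM in *lacZ* RNAi. *Fbp1*, which encodes a fat body receptor for storage proteins, did not overlap in either comparison, at 9122 to 26119 CPM in libraries labelled *4EHP* RNAi against 111893 to 146327 CPM in controls, and 17727 to 24082 CPM in libraries labelled *NELF-E* RNAi against 74104 to 127831 CPM in *lacZ* RNAi. *Lsp2* ran the other way with CPM as deposited, at 99254 to 129534 CPM for *4EHP* RNAi against 53880 to 77491 CPM in controls. For *NELF-E* RNAi it was at 94502 to 113716 CPM, against 65311 to 85824 CPM in *lacZ* RNAi. *Apoltp* was also higher without overlap in both comparisons. On scaled CPM 3 of the 8 markers were lower and 1 higher without overlap for *4EHP* RNAi, and 2 and 1 for *NELF-E* RNAi. Of all genes, 11.0% and 17.7% were lower without overlap on that scale, and the share higher is not given here. With CPM as deposited, 5.07% of all genes were lower and 23.5% higher without overlap for *4EHP* RNAi. For *NELF-E* RNAi these shares were 7.39% and 19.5%. The part of these markers in the results was not tested.

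Per kilobase of exon, *PGRP-SB1* was the most abundant PGRP transcript in the first table, at 164 ± 149 CPM per kb in libraries labelled *4EHP* RNAi and 594 ± 301 CPM per kb in controls (SD, n = 3 each). In libraries labelled *4EHP* RNAi it was followed by *PGRP-SA* (107 ± 52.0) and *PGRP-SD* (80.7 ± 24.2), and the libraries of these 3 genes overlapped. In controls *PGRP-SB1* lay above *PGRP-SD* (192 ± 45.6) and *PGRP-SD* above *PGRP-SA* (59.6 ± 25.2) in every library. *PGRP-SC2*, *PGRP-LE*, *PGRP-LB*, *PGRP-LC* and *PGRP-LF* averaged between 4.39 and 27.4 CPM per kb in both groups, with overlapping libraries between neighbours in the order except for *PGRP-LE* and *PGRP-LB* above *PGRP-LC* in libraries labelled *4EHP* RNAi. *PGRP-LA* was lowest, at 0.665 ± 0.207 and 0.312 ± 0.174 CPM per kb.

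In the second table the order was headed by a receptor. *PGRP-SD* stood at 47.3 ± 13.0 CPM per kb in libraries labelled *NELF-E* RNAi and 164 ± 27.5 CPM per kb in *lacZ* RNAi (SD, n = 3 each), above all other members in each library. In libraries labelled *NELF-E* RNAi it was followed by *PGRP-SA* (20.9 ± 9.83) and *PGRP-LE* (13.9 ± 0.498), whose libraries overlapped, and then by *PGRP-SB1* (8.31 ± 1.90), which lay below *PGRP-LE* throughout. In *lacZ* RNAi, *PGRP-SB1* (45.5 ± 4.78) and *PGRP-SA* (42.4 ± 15.8) overlapped and *PGRP-LE* (10.2 ± 2.36) was below both. The receptor *PGRP-LC* followed in both groups, and *PGRP-LB*, *PGRP-SC2*, *PGRP-LF* and *PGRP-LA* were at 2.12 CPM per kb or less. The tables had separate libraries and controls, and the difference between them was not tested.

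**Figure D1:**
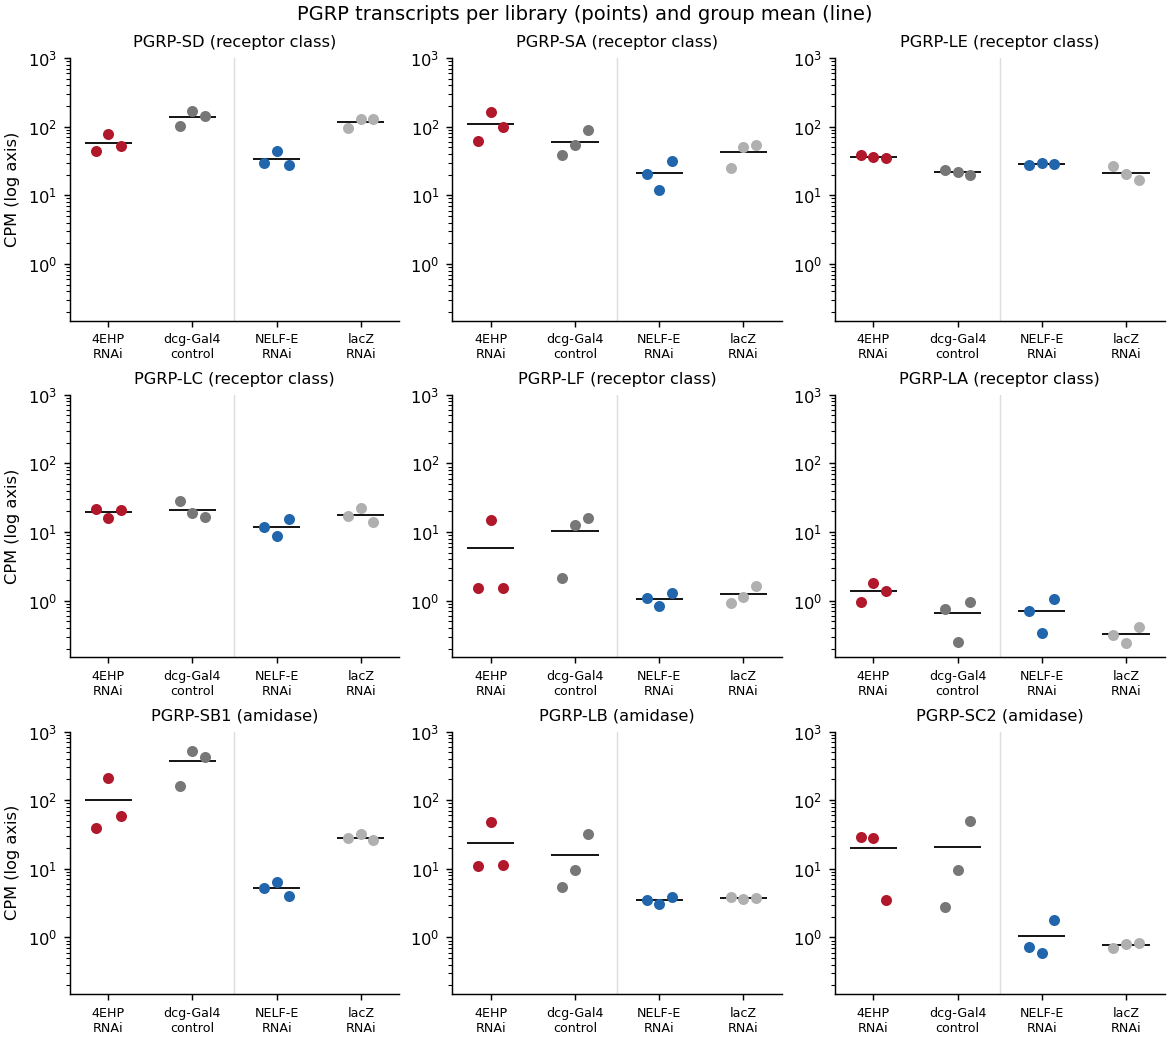
CPM of each PGRP gene (log axis) in the 12 RNA-seq libraries, with a point for each library and a line for the mean of 3. *PGRP-SD* was lower in each library labelled *4EHP* RNAi or *NELF-E* RNAi than in any of its controls, whereas *PGRP-LF*, *PGRP-LB* and *PGRP-SC2* varied several-fold within the groups of the first table.

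The first comparison, of *4EHP* RNAi with the driver-only control, asks how fat body transcripts change when the cap-binding protein 4EHP is targeted. No PGRP gene passed the test, and *PGRP-SB1* and *PGRP-SD* had the largest estimates, both below 0. *PGRP-SB1*, an amidase that the fat body makes upon infection, was at 39.7, 208 and 58.3 CPM in libraries labelled *4EHP* RNAi, against 162, 527 and 421 CPM in controls. Replicate 2 of the libraries labelled *4EHP* RNAi exceeded control replicate 1, so the groups overlapped. Its log2 fold change was -2.64 (SE 0.91, unadjusted p = 0.0262, adjusted p = 0.405, limma with Benjamini-Hochberg adjustment).

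*PGRP-SD*, a secreted receptor that assists the sensing of bacteria upstream of Toll, was at 44.6, 77.8 and 52.2 CPM in libraries labelled *4EHP* RNAi, against 104, 169 and 143 CPM in controls. The groups did not overlap on either scale. The log2 fold change was -1.83 (SE 0.55, unadjusted p = 0.0145, adjusted p = 0.318, limma). With DESeq2 on the recovered reads *PGRP-SD* passed (adjusted p = 0.0257) and *PGRP-SB1* did not (0.0541). Both passed with array weights, a setting that called 1058 of 8584 genes lower. The 15 alternatives gave adjusted p between 0.00597 and 0.843 for *PGRP-SD* and between 0.0184 and 0.891 for *PGRP-SB1*.

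Among the other receptors, *PGRP-LC*, the transmembrane receptor of the Imd pathway, was at 22.0, 15.8 and 21.1 CPM in libraries labelled *4EHP* RNAi, against 28.4, 19.1 and 16.3 CPM in controls. These values overlapped. On the scaled values the groups separated, with 12.3 to 19.0 scaled CPM in libraries labelled *4EHP* RNAi and 19.5 to 36.3 in controls (log2 fold change -0.65, SE 0.36, adjusted p = 0.660). With CPM as deposited *PGRP-LE*, the cytoplasmic receptor, varied little within each group. It was at 39.0, 35.9 and 35.5 CPM in libraries labelled *4EHP* RNAi and 23.3, 21.7 and 19.9 CPM in controls. Its deposited CPM were thus higher in every library labelled *4EHP* RNAi. The scaled values overlapped, at 27.9 to 33.7 against 19.0 to 44.3 in controls. The log2 fold change was 0.17 after scaling (SE 0.40, limma adjusted p = 0.839) and 0.74 before it. *PGRP-SA*, the receptor that starts Toll signalling, was at 62.0, 166 and 97.8 CPM, against 39.2, 53.9 and 89.0 CPM in controls. The groups overlapped, and the log2 fold change was 0.21 (SE 0.74, adjusted p = 0.893).

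The remaining members varied within groups as much as between them. *PGRP-LF*, a membrane protein that restrains *PGRP-LC*, was at 1.55, 14.8 and 1.54 CPM in libraries labelled *4EHP* RNAi, against 2.13, 12.6 and 16.0 CPM in controls (log2 fold change -1.47, SE 1.13, adjusted p = 0.695). *PGRP-LB*, an amidase that dampens Imd signalling, was at 11.1, 48.0 and 11.5 CPM, against 5.49, 9.48 and 32.6 CPM in controls (log2 fold change -0.01, SE 1.06, adjusted p = 0.996). *PGRP-SC2*, an amidase best known from the gut, was at 28.8, 27.7 and 3.45 CPM, against 2.78, 9.49 and 49.0 CPM in controls (log2 fold change -0.26, SE 1.42, adjusted p = 0.931). All 3 genes overlapped between the groups, and the estimates of *PGRP-LB* and *PGRP-SC2* turned to 0.57 and 0.31 with CPM as deposited. Beside *PGRP-SC2*, the sum of 14 gut markers was 926, 446 and 62.9 CPM in libraries labelled *4EHP* RNAi, with *Jon65Aiv* the most abundant, against 2.09, 4.50 and 25.0 CPM in controls. From 0 to 3 of these markers were at 0 in a library. Under 1 CPM were 7, 2 and 6 of the 14 in libraries labelled *4EHP* RNAi, and 14, 13 and 8 in controls. The part of the gut markers in the *PGRP-SC2* values was not tested. The sums of 8 muscle markers were 228, 179 and 104 CPM in libraries labelled *4EHP* RNAi, against 76.5, 76.4 and 19.4 CPM in controls. Those of 10 haemocyte markers were 160, 210 and 172 CPM, against 114, 87.8 and 145 CPM. With CPM as deposited, both sums were thus higher without overlap, where 23.5% of all genes were. On scaled CPM, 6 of 8 tested muscle markers and 0 of 8 tested haemocyte markers had an unadjusted p under 0.05 (limma). Of all genes at that threshold, 4.64% were higher and 5.24% lower. None of these markers was at 0 in any library, and their part in the results was not tested. *PGRP-LA*, a regulator without known amidase activity, stayed below the filter of 5 CPM (0.968, 1.836 and 1.378 CPM, against 0.766, 0.246 and 0.948 CPM in controls).

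Counted together, 0 of the 8 tested members were called higher or lower, and 0% of the 8584 genes tested were called in either direction. At an unadjusted p under 0.05, 2 members (*PGRP-SB1* and *PGRP-SD*) were lower, and 5.24% of all genes were. On scaled CPM the groups did not overlap for 2 of the 8, *PGRP-LC* and *PGRP-SD*, both lower, against 11.0% of all genes. With CPM as deposited they did not overlap for *PGRP-SD*, which was lower (5.07% of all genes), or for *PGRP-LE*, which was higher (23.5%). edgeR called 0 members and 0 genes in all. DESeq2 called 1 member lower, where 2.15% of all genes were. The median log2 fold change of the 8 was -0.46, against 0.15 for all genes. For single values, 3 libraries against 3 allow no exact two-sided p below 0.1. Without dcg-Gal4 control replicate 3, the library that stood apart, *PGRP-SD* had a log2 fold change of -1.33 (adjusted p = 0.0762) and *PGRP-SB1* of -2.0 (adjusted p = 0.190), and 0 members were called, where 1.36% of all genes were lower.

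The second comparison, of *NELF-E* RNAi with *lacZ* RNAi, asks the same of a subunit of the complex that pauses RNA polymerase II. Here *PGRP-SB1* and *PGRP-SD* fell. *PGRP-SB1* was at 5.21, 6.34 and 3.98 CPM in libraries labelled *NELF-E* RNAi, against 27.6, 31.6 and 25.8 CPM in *lacZ* RNAi. The groups were far apart compared with the spread within them, and the log2 fold change was -2.93 (SE 0.41, adjusted p = 0.00824, limma). *PGRP-SD* was at 29.5, 44.9 and 27.9 CPM in libraries labelled *NELF-E* RNAi, against 95.4, 130 and 129 CPM in *lacZ* RNAi. It did not overlap either, and its log2 fold change was -2.52 (SE 0.51, adjusted p = 0.0319). In bulk tissue, fewer cells that make a transcript and less of it per cell cannot be told apart.

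Both falls kept their direction in all 16 alternatives, but not always their call. *PGRP-SB1* was called in 14, with adjusted p from 2.94e-10 with DESeq2 to 0.0590 without *lacZ* RNAi replicate 3. *PGRP-SD* was called in 10. It was not called without *lacZ* RNAi replicate 2 (adjusted p = 0.0808) or 3 (0.154), without *NELF-E* RNAi replicate 1 (0.105) or 3 (0.128), or without a filter on low values (0.0861). Because *lacZ* RNAi replicates 2 and 3 had few testis transcripts, the comparison was also made without both, a choice made after seeing the data. The log2 fold changes were then -2.17 for *PGRP-SB1* (adjusted p = 0.0571) and -1.44 for *PGRP-SD* (adjusted p = 0.191), with *lacZ* RNAi represented by 1 library whose spread was assumed to be that of the other group. That library, replicate 1, had a testis marker sum of 2604 CPM, within the 1738 to 2627 CPM of the libraries labelled *NELF-E* RNAi. Its *PGRP-SB1* (27.6 CPM) and *PGRP-SD* (95.4 CPM) values were above those of all 3 libraries labelled *NELF-E* RNAi.

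The receptors *PGRP-LC* and *PGRP-SA* had lower estimates that did not pass. *PGRP-LC* was at 11.7, 8.71 and 15.3 CPM in libraries labelled *NELF-E* RNAi, against 17.0, 22.4 and 13.8 CPM in *lacZ* RNAi (log2 fold change -1.26, SE 0.41, adjusted p = 0.144). The deposited values overlapped, whereas the scaled values, 8.04 to 9.83 against 13.3 to 45.2, did not. *PGRP-SA* was at 20.1, 11.9 and 31.9 CPM in libraries labelled *NELF-E* RNAi, against 24.8, 50.1 and 54.5 CPM in *lacZ* RNAi, and overlapped on both scales (log2 fold change -1.74, SE 0.57, adjusted p = 0.147). With DESeq2 both passed (adjusted p = 0.0115 for *PGRP-LC* and 0.00143 for *PGRP-SA*). *PGRP-LE* was narrow in range in libraries labelled *NELF-E* RNAi, at 27.8, 29.9 and 28.7 CPM, but wider in *lacZ* RNAi, at 26.5, 20.2 and 16.8 CPM. Its log2 fold change was -0.27 after scaling (SE 0.31, adjusted p = 0.601) and 0.45 with CPM as deposited, so its direction depended on the scale.

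The remaining 4 members were below the filter of 5 CPM in this table. *PGRP-LB* was at 3.48, 3.12 and 3.89 CPM in libraries labelled *NELF-E* RNAi and 3.88, 3.66 and 3.76 CPM in *lacZ* RNAi. *PGRP-LF* was at 1.08, 0.835 and 1.30 CPM, against 0.928, 1.15 and 1.64 CPM. *PGRP-SC2* was at 0.720, 0.597 and 1.80 CPM, against 0.697, 0.789 and 0.821 CPM. With CPM as deposited the groups of each overlapped. *PGRP-LA*, at 0.703, 0.339 and 1.06 CPM against 0.316, 0.242 and 0.416 CPM, also overlapped. On scaled CPM *PGRP-LB* did not overlap, at 2.5 to 2.88 against 3.04 to 7.40 scaled CPM, and with genes of at least 1 CPM tested its log2 fold change was -0.69 (SE 0.29, limma adjusted p = 0.239). These amidases and regulators thus stayed at a low level in all 6 libraries.

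Of the 5 tested members, 2 were called lower, where 2.45% of the 8371 genes tested were, and 0 were called higher, where 1.99% of all genes were. At an unadjusted p under 0.05, 4 members were lower (*PGRP-LC*, *PGRP-SA*, *PGRP-SB1* and *PGRP-SD*), and 13.0% of all genes were. edgeR called 2 lower, again *PGRP-SB1* and *PGRP-SD*, where 2.44% of all genes were. DESeq2, whose filter also kept *PGRP-LB*, called 4 of 6 lower, *PGRP-LC*, *PGRP-SA*, *PGRP-SB1* and *PGRP-SD*, beside 9.47% of all genes. It did not call *PGRP-LE* or *PGRP-LB* (adjusted p = 0.127). On scaled CPM the groups did not overlap for 3 of the 5 (*PGRP-LC*, *PGRP-SB1* and *PGRP-SD*, all lower), against 17.7% of all genes. With CPM as deposited they did not overlap for *PGRP-SB1* and *PGRP-SD*, which were lower (7.39% of all genes), and *PGRP-LE*, which was higher (19.5%). The median log2 fold change of the 5 was -1.74, against -0.05 for all genes. Without *lacZ* RNAi replicates 2 and 3, 0 members were called (1.18% of all genes were lower), and without *lacZ* RNAi replicate 1 the number was 4 (23.8%).

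**Figure D2:**
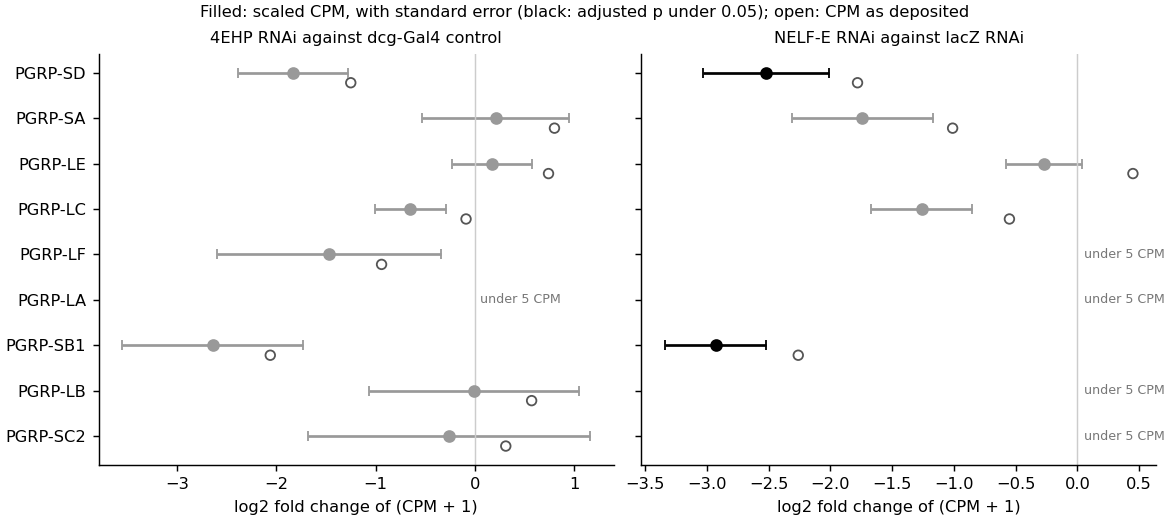
Log2 fold change of the tested PGRP genes in the comparisons of *4EHP* RNAi with dcg-Gal4 control (left) and *NELF-E* RNAi with *lacZ* RNAi (right), with filled points and standard errors for scaled CPM and open points for CPM as deposited. *PGRP-SB1* (-2.93) and *PGRP-SD* (-2.52) on the right passed the test and are drawn in black, and the open points lie to the right of the filled points for every gene.

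Amidases and receptors were next compared within each library, where scaling cancels out. In libraries labelled *4EHP* RNAi, the summed amidase CPM divided by the summed receptor CPM was 0.468, 0.910 and 0.350, against 0.862, 1.97 and 1.77 in controls. The highest library labelled *4EHP* RNAi overlapped the lowest control. In libraries labelled *NELF-E* RNAi the ratio was 0.104, 0.104 and 0.0910, against 0.195, 0.161 and 0.141 in *lacZ* RNAi, without overlap. *PGRP-SB1* was the most abundant amidase by CPM in all 12 libraries. The most abundant receptor by CPM was *PGRP-SA* in each library labelled *4EHP* RNAi and in *NELF-E* RNAi replicate 3, and *PGRP-SD* in the other 8. The ratio of *PGRP-SB1* to *PGRP-SD*, the members that were called, was 0.177, 0.141 and 0.143 in libraries labelled *NELF-E* RNAi and 0.290, 0.243 and 0.200 in *lacZ* RNAi, again without overlap. That pair was taken because both were called in these same libraries, so its ratio is not a separate result. *PGRP-SB1* made up 84.9% to 87.7% of the amidase sum in *lacZ* RNAi and 41.1% to 63.1% in libraries labelled *NELF-E* RNAi. With CPM as deposited *PGRP-LB* and *PGRP-SC2* overlapped there, so the amidase ratio largely restates the fall of *PGRP-SB1*. No test was made on these ratios, since the classes were chosen with the results known.

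The sums themselves moved as follows. Amidases summed to 9.71 ± 0.326 CPM in libraries labelled *NELF-E* RNAi and 32.9 ± 2.90 CPM in *lacZ* RNAi, and receptors to 97.9 ± 7.74 and 202 ± 32.3 CPM (SD, n = 3 each). Both sums were lower in libraries labelled *NELF-E* RNAi, and the amidase sum, which was mostly *PGRP-SB1* in *lacZ* RNAi, by the larger factor. For *4EHP* RNAi the amidase sums were 146 ± 120 CPM, against 406 ± 205 CPM in controls, and the receptor sums 231 ± 73.4 CPM, against 253 ± 48.1 CPM. By the median of tested members, receptors stood at -0.65 (5 genes) and amidases at -0.26 (3 genes) for *4EHP* RNAi, and receptors at -1.50 (4 genes) and amidases at -2.93 (1 gene, *PGRP-SB1*) for *NELF-E* RNAi. For *4EHP* RNAi the medians and the sums thus ordered the classes differently, because *PGRP-SB1*, the most abundant amidase, weighs most in the sums whereas the median is that of *PGRP-SC2*.

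**Figure D3:**
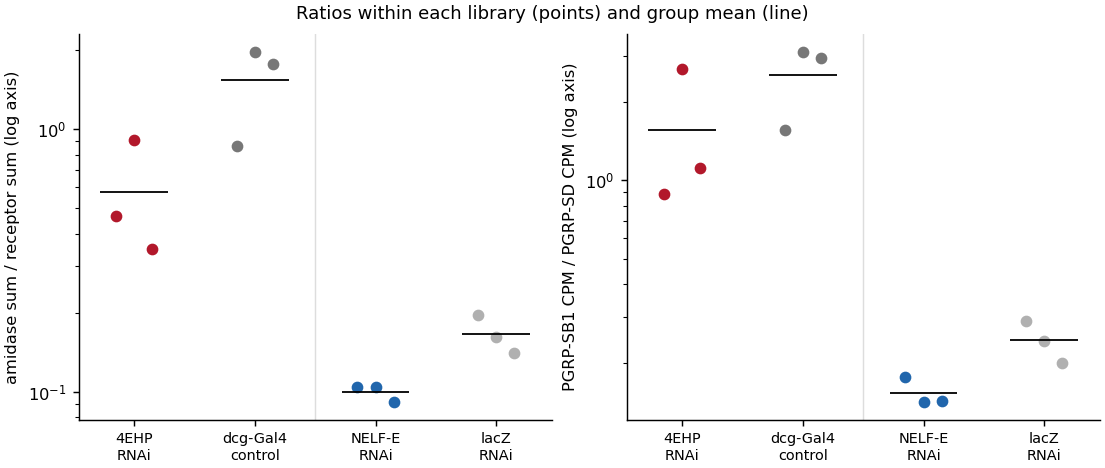
Summed amidase CPM over summed receptor CPM (left) and *PGRP-SB1* CPM over *PGRP-SD* CPM (right), both on log axes, with a point for each of the 12 libraries and a line for the mean of 3. Both ratios were lower in all 3 libraries labelled *NELF-E* RNAi than in any *lacZ* RNAi library, whereas libraries labelled *4EHP* RNAi overlapped their controls. *PGRP-SB1* made up most of the amidase sum in *lacZ* RNAi.

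The spread within the first table was shared by several members. *PGRP-LF* and *PGRP-SB1* were high in replicate 2 of *4EHP* RNAi and in control replicates 2 and 3, and lower in the other 3 libraries of that table, although *PGRP-SB1* in control replicate 1 (162 CPM) came close to replicate 2 of *4EHP* RNAi (208 CPM). *PGRP-LB* was highest in replicate 2 of *4EHP* RNAi (48.0 CPM) and control replicate 3 (32.6 CPM). The transcripts of 13 antimicrobial peptides, all of the list except *Drs*, summed to 113, 3910 and 358 CPM in libraries labelled *4EHP* RNAi, against 132, 3860 and 3902 CPM in controls. The 3 libraries with high sums were thus those with high *PGRP-LF*, and they came from both groups. With *Drs* included, the same 3 libraries had the highest sums. *AttD* and *Def* did not follow this split. They were at 49.7 and 91.6 CPM in *4EHP* RNAi replicate 2, against 0.422 and 0.691 CPM in control replicate 2. *AttA*, which encodes the peptide attacin A, was at 5.76, 361 and 29.4 CPM, against 14.9, 370 and 273 CPM in controls. *DptA*, which encodes diptericin A, was at 12.1, 523 and 42.1 CPM, against 20.4, 572 and 478 CPM in controls. *PGRP-LC* ran the other way with CPM as deposited, at 15.8 to 19.1 CPM in these 3 libraries and 21.1 to 28.4 CPM in the others, but overlapped on scaled CPM. *PGRP-LE* overlapped between the same sets of libraries (19.9 to 35.9 and 23.3 to 39.0 CPM).

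Across the 6 libraries of that table, the genes most like *PGRP-LF* on log2(scaled CPM + 1) were *CG42807* (Pearson's r = 0.992), *IBIN* (0.980) and *CG43920* (0.979), among 8584 genes. *IBIN*, a transcript induced by infection, was at 7.39, 102 and 10.0 CPM in libraries labelled *4EHP* RNAi, against 24.2, 118 and 126 CPM in controls. *AttC* (0.959) and *DptA* (0.963) were nearly as close. *PGRP-LF* was taken for this description after its values were seen, and the 6 points share the split of libraries just described. In the second table the same 13 peptides summed to 8.0, 20.9 and 16.5 CPM in libraries labelled *NELF-E* RNAi, against 22.7, 10.6 and 416 CPM in *lacZ* RNAi. The library with the high sum, *lacZ* RNAi replicate 3, had *PGRP-LF* at 1.64 CPM and *PGRP-SB1* at 25.8 CPM. With CPM as deposited these were the highest *PGRP-LF* and the lowest *PGRP-SB1* of its group. On scaled CPM *PGRP-LF* was highest in *lacZ* RNAi replicate 2 (2.32, against 2.26 in replicate 3). *PGRP-SB1* was then lowest in replicate 1 (21.6, against 35.8 in replicate 3). With *Drs* included, *lacZ* RNAi replicate 3 instead had the lowest sum of its group, at 979 CPM against 1651 and 1354 CPM.

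**Figure D4:**
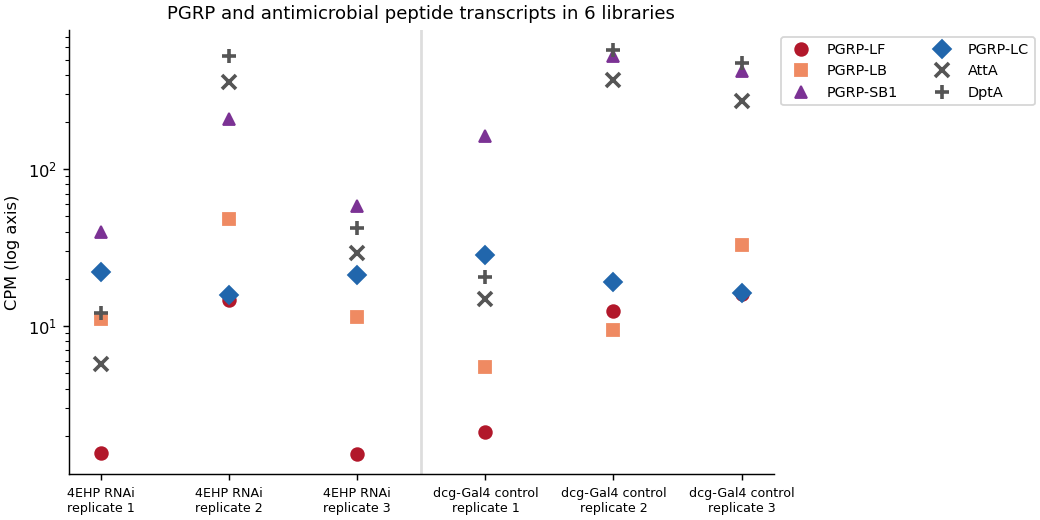
CPM (log axis) of *PGRP-LF*, *PGRP-LB*, *PGRP-SB1* and *PGRP-LC* with the antimicrobial peptide transcripts *AttA* and *DptA* in the 3 libraries labelled *4EHP* RNAi (left) and the 3 dcg-Gal4 controls (right). *PGRP-LF*, *AttA* and *DptA* were high in replicate 2 of *4EHP* RNAi and in control replicates 2 and 3, whereas *PGRP-LC* stayed between 15.8 and 28.4 CPM.

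*PGRP-SB1* and *PGRP-SD* also resembled each other over the libraries. Likeness was measured as the lower of a gene's Pearson correlations with the member over the 6 libraries of each table, on log2(scaled CPM + 1), among 8162 genes. For *PGRP-SD*, the receptor with the highest mean CPM over the 12 libraries, the genes most like it were *GNBP3* (0.984), which encodes a sensor of fungal cell walls, *CG9240* (0.983) and *CG11590* (0.983). *PGRP-SB1* came at rank 13 (0.969). For *PGRP-SB1*, the amidase with the highest mean CPM, *CG9536* (0.978) came first, followed by *PGRP-SD* (0.969) and *Prx2540-2* (0.968), a peroxiredoxin gene. The other members tested in both tables were less like *PGRP-SD*, with *PGRP-LC* at 0.729, *PGRP-SA* at 0.404 and *PGRP-LE* at 0.224. These correlations are descriptions over 6 libraries that share their group difference and their scaling factors.

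The pathways that PGRPs feed were described from lists of genes. In the *4EHP* RNAi comparison, 0 of 14 Imd pathway genes, 0 of 17 Toll pathway genes and 0 of 14 antimicrobial peptide genes were called in either direction. At an unadjusted p under 0.05 the numbers were 1, 4 and 1, where 5.24% of all genes were lower and 4.64% higher, and DESeq2 called 1, 1 and 2, all lower, where 2.15% of all genes were. The median log2 fold changes were -0.31, -0.43 and -1.52, against 0.15 for all genes. With CPM as deposited the Imd and Toll medians turned to 0.24 and 0.14 (0.68 for all genes). The smallest p of the Imd list belonged to *pirk*, which encodes an inhibitor that binds *PGRP-LC*, at 12.3, 21.9 and 10.1 CPM in libraries labelled *4EHP* RNAi, against 105, 49.8 and 52.3 CPM in controls. The *pirk* groups did not overlap, where 11.0% of all genes were lower without overlap on scaled CPM (log2 fold change -2.70, SE 0.45, limma adjusted p = 0.128, DESeq2 adjusted p = 2.70e-05). Next came *akirin* (-0.68), a nuclear cofactor of Relish, and *Fadd* (-0.40), an adaptor.

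On the Toll list, *GNBP3* was at 182, 293 and 272 CPM in libraries labelled *4EHP* RNAi, against 479, 600 and 698 CPM in controls (log2 fold change -1.85, adjusted p = 0.355). *SPE*, the protease that activates the Toll ligand, was at 42.5, 57.9 and 53.0 CPM, against 3.94, 6.29 and 13.5 CPM in controls (log2 fold change 2.1, adjusted p = 0.415), and the protease gene *spirit* had an estimate of -1.76 (adjusted p = 0.411). These genes were named for the smallest p of the list. None of their groups overlapped, and *SPE* ran opposite to *PGRP-SD*. Of all genes, 11.0% were lower without overlap on scaled CPM and 23.5% higher with CPM as deposited. *Drs*, which encodes drosomycin, a peptide commonly read as a Toll output, was at 230, 533 and 128 CPM, against 1140, 1286 and 754 CPM in controls (log2 fold change -2.63, adjusted p = 0.199). *AttC* (-3.12) and *AttA* (-2.06) overlapped between the groups. Without dcg-Gal4 control replicate 3, *pirk* and *spirit* were called lower, where 1.36% of all genes were. *SPE* was then called higher, where 458 of 8723 genes were.

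In the *NELF-E* RNAi comparison, 3 of 17 Toll pathway genes were called lower, where 2.45% of all genes were, and 0 higher, while 0 of 14 Imd pathway genes and 0 of 5 antimicrobial peptide genes tested were called. At an unadjusted p under 0.05 the numbers were 9, 4 and 1, where 13.0% of all genes were lower and 6.19% higher, and DESeq2 called 8, 3 and 0, all lower, where 9.47% of all genes were. The called genes encode serine proteases or protease homologues of the cascade upstream of Toll. The gene *grass* was at 12.3, 14.3 and 9.98 CPM in libraries labelled *NELF-E* RNAi, against 44.1, 70.5 and 49.7 CPM in *lacZ* RNAi (log2 fold change -2.78, SE 0.49, adjusted p = 0.0201, limma). The gene *modSP* was at 15.2, 15.7 and 19.4 CPM, against 42.9, 62.2 and 42.6 CPM (log2 fold change -2.21, adjusted p = 0.0308). The gene *spirit* was at 40.7, 38.9 and 42.9 CPM, against 110, 172 and 123 CPM (log2 fold change -2.42, adjusted p = 0.0308). All 3 were below every *lacZ* RNAi library, as were 7.39% of all genes with CPM as deposited and 17.7% on scaled CPM. Without *lacZ* RNAi replicates 2 and 3, *modSP* and *spirit* were called, and without *lacZ* RNAi replicate 3 alone, without *NELF-E* RNAi replicate 1 or 3, or without a filter on low values, the number was 0. It was 1 (*grass*) without *NELF-E* RNAi replicate 2 and 10 without *lacZ* RNAi replicate 1, where 23.8% of all genes were called lower.

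The median log2 fold change of the Toll list was -0.99, of the Imd list -0.46 and of the antimicrobial peptides -1.87, against -0.05 for all genes, and with CPM as deposited the Imd median turned to 0.25 (0.65 for all genes). Of the Imd list, *pirk* (-1.94, adjusted p = 0.0579), *Rel*, which encodes Relish (-1.85, adjusted p = 0.0791), and *Fadd* (-1.07, adjusted p = 0.0863) had the smallest p. *Rel* was at 41.4, 35.6 and 50.6 CPM in libraries labelled *NELF-E* RNAi, against 75.7, 125 and 82.8 CPM in *lacZ* RNAi. Its groups did not overlap, where 17.7% of all genes were lower without overlap on scaled CPM. Of the peptides, *Drs* (-1.87, adjusted p = 0.246) and *AttC* (-1.48) overlapped. *DptA* (-3.15, adjusted p = 0.278) was at 0.786, 0.997 and 3.72 CPM, against 4.40, 2.16 and 220 CPM, with *lacZ* RNAi replicate 3 far above the rest.

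**Figure D5:**
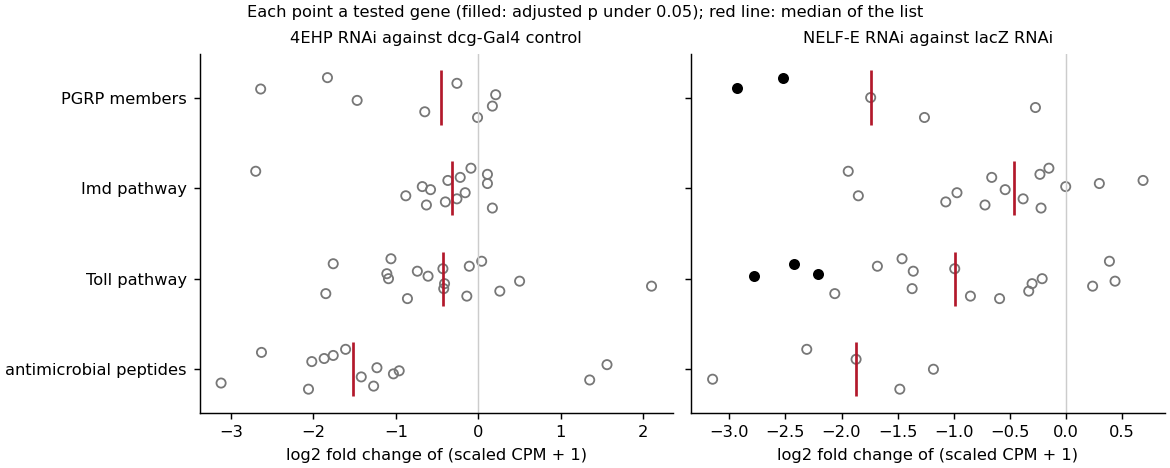
Log2 fold change on scaled CPM of each tested PGRP gene and of each tested gene of the Imd, Toll and antimicrobial peptide lists, for *4EHP* RNAi against dcg-Gal4 control (left) and *NELF-E* RNAi against *lacZ* RNAi (right), with filled points for adjusted p under 0.05 and a red line for the median of each list. Filled points appear only on the right, for 2 PGRP genes and 3 Toll pathway genes, all below 0.

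The PGRP genes outside the group of 9 were scarce. *PGRP-SB2*, the neighbour of *PGRP-SB1*, was at 2.92, 12.8 and 1.92 CPM in libraries labelled *4EHP* RNAi, against 1.73, 0.141 and 0.251 CPM in controls. Every library labelled *4EHP* RNAi was above every control, where 23.5% of all genes tested were higher without overlap with CPM as deposited. The estimate of *PGRP-SB1* was below 0, but its groups overlapped. *PGRP-SB2* was below the filter and was not tested. In the second table it averaged 0.0143 CPM in libraries labelled *NELF-E* RNAi and 0.0127 CPM in *lacZ* RNAi. *PGRP-LD* averaged 0.235 to 0.415 CPM over the 4 groups, and the amidase genes *PGRP-SC1a* and *PGRP-SC1b* averaged 0.145 CPM or less.

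TRIBE gave a second readout of the same transcripts. The authors listed 91502 edited sites after comparing the 4EHP-ADAR and mutant libraries, with median depths of 93, 82 and 85 A and G reads per site for 4EHP-ADAR and 72, 52 and 54 for the mutant. Among them were 54 sites in the members, in *PGRP-LC* (16), *PGRP-LE* (14), *PGRP-LB* (10), *PGRP-SA* (4), *PGRP-LF* (3), *PGRP-SC2* (3), *PGRP-SB1* (2) and *PGRP-SD* (2), and 0 in *PGRP-LA*. At least 20 reads in every library were present at 37 of them. None of the 37 passed the test between 4EHP-ADAR and the mutant (quasi-binomial model, smallest adjusted p = 0.521), where 0.093% of 69874 sites did, and 0 had an unadjusted p under 0.05, where 1.29% of all sites did. No library without ADAR was used here.

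The widest differences were at single sites of *PGRP-LC* and *PGRP-LB*. At 3L 9347140 in *PGRP-LC*, in coding sequence or 3′ UTR depending on the transcript, 21 of 36 pooled reads were G with 4EHP-ADAR (58.3%, 95% Wilson interval 42.2% to 72.9%), against 5 of 23 with the mutant (21.7%, 9.66% to 41.9%). By library these were 57.1%, 75.0% and 22.2% with 4EHP-ADAR and 50%, 0% and 0% with the mutant, so the groups overlapped. Depth was too low for the test, with 5 reads in the shallowest library. At 3R 11453185 in the coding sequence of *PGRP-LB*, 69 of 195 reads were G with 4EHP-ADAR (35.4%, 29.0% to 42.3%), against 24 of 124 with the mutant (19.4%, 13.4% to 27.2%). By library these were 23.5%, 56.3% and 23.1% with 4EHP-ADAR and 27.7%, 5.71% and 21.4% with the mutant, so the groups overlapped (p = 0.158 in the quasi-binomial model, adjusted p = 0.521). In the 5′ UTR of *PGRP-LB*, at 3R 11457977, the shares were 8 of 65 (12.3%) against 1 of 42 (2.38%).

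In the intron of *PGRP-SB1*, at 3L 16727888, G made up 299 of 327 reads with 4EHP-ADAR (91.4%), against 328 of 400 with the mutant (82.0%). The libraries ranged over 79.3% to 98.6% with 4EHP-ADAR and 78.3% to 100% with the mutant. Fisher's exact test on the pooled reads, which ignores the spread between libraries, called this site (adjusted p = 0.0221) and no other PGRP site. In an intron of *PGRP-SA*, at X 11562517, 1 of 25 reads was G with 4EHP-ADAR (4.0%) and 0 of 20 with the mutant, a count compatible with shares up to 15.0%. The intervals and limits cover counting error only.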

How the data were processed

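For RNA-seq, the authors deposited CPM for each gene. The submitters' processing notes name STAR, featureCounts, DESeq2 and dm6. Whole reads were recovered from the steps of the CPM values (99.95% to 100% whole, within 0.05 to 0.107 reads), giving 59919649 to 173606470 reads on genes per library. Genes with a mean of at least 5 CPM were tested within each table with limma 3.58.1 in R 4.3.3 (eBayes with a trend), on log2 of scaled CPM plus 1, with Benjamini-Hochberg adjustment over all genes and a threshold of 0.05. Fold changes on this scale understate those of low genes. Recovered reads were also tested with edgeR 4.0.16 (quasi-likelihood) and DESeq2 1.42.0 (mean above 350). The fits were tested on simulated data.

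For TRIBE, the authors deposited A, C, G and T read counts per library and site, with their own score of each site, which was not used. Listed positions were found to count from 0 and are given with 1 added. Sites with at least 20 reads in every library were fitted with a quasi-binomial model.

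The labels do not say whether replicates came from separate cultures, and the methods give pooled fat bodies of male larvae for each, so p-values measure the spread between these libraries. All 9 members are named, with the 3 genes of smallest p per pathway list and contrast, the 3 genes most like the leading receptor and amidase, and the 5 sites with the widest difference. Members and lists were chosen with earlier results of these data known. Promoter and protein sequences were not analysed here.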

Additional observations from a re-analysis of the deposited data

How the results depend on the processing

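For *4EHP* RNAi, members called lower numbered 0, but 1 with DESeq2 and 2 with array weights. All genes called lower numbered 182 with DESeq2, 22 with CPM as deposited, 1058 with array weights and 0 to 119 with 1 library left out, and those called higher 205, 71, 1123 and 0 to 458, and 5 with a pseudocount of 5. The median log2 fold change of amidases minus that of receptors (0.38) ranged from -0.68 to 1.49 with 1 library left out. The estimate of *PGRP-SA* (0.21) turned to -0.12 with DESeq2, -0.13 without *4EHP* RNAi replicate 2 and -0.34 without control replicate 1 (-0.34 to 0.99 with 1 library left out). That of *PGRP-LB* (-0.01) turned to 0.57 with CPM as deposited, 0.02 with a pseudocount of 0.1, 0.74 with array weights, 0.27 and 0.28 without *4EHP* RNAi replicates 1 and 3, and 1.13 without control replicate 3 (-0.79 to 1.13). That of *PGRP-SC2* (-0.26) turned to 0.31 with CPM as deposited, 0.59 without *4EHP* RNAi replicate 3 and 1.20 without control replicate 3 (-1.39 to 1.20), and that of *PGRP-LE* (0.17) to -0.05 without control replicate 1.

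For *NELF-E* RNAi, members called lower (2) numbered 4 with DESeq2, array weights or the replicate block, 1 without a filter, 0 without *lacZ* RNAi replicates 2 and 3, and 0 to 4 with 1 library left out. All genes called lower (205) numbered 887 with DESeq2, 94 without a filter, 2526 with array weights, 709 with the replicate block, 102 without *lacZ* RNAi replicates 2 and 3, and 47 to 1978 with 1 library left out. Those called higher (167) numbered 312 with DESeq2, 337 with CPM as deposited, 2016 with array weights, 313 with the replicate block, 349 without *lacZ* RNAi replicates 2 and 3, and 50 to 1454. Amidases minus receptors (-1.43) became -0.94 with a pseudocount of 5, -0.55 with genes of at least 1 CPM and 0.21 without a filter. *PGRP-LE* (-0.27) turned to 0.45 with CPM as deposited, 0.05 without *lacZ* RNAi replicate 2 (-0.47 to 0.05 with 1 library left out) and 0.17 without *lacZ* RNAi replicates 2 and 3.

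For TRIBE, Fisher's exact test on pooled reads called 1 PGRP site, and sites called in all (65) numbered 750 with it, 489 with an empirical logit in limma and 0 to 37 with 1 library left out. Where no construction shows it, the cause was not tested. Deviations of same-numbered libraries correlated weakly (r of -0.17 to 0.12 and -0.21 to 0.30). With 3 libraries a group this cannot settle whether the numbers pair samples. Salivary gland markers summed to 341 CPM in *lacZ* RNAi replicate 1 and 485 CPM in *NELF-E* RNAi replicate 1. They summed to 5.4 to 18.7 CPM in the other libraries of that table. Whether same-numbered libraries were handled together was not tested. The block called 0 members for *4EHP* RNAi and added *PGRP-LC* and *PGRP-SA* for *NELF-E* RNAi. No paired analysis was possible for TRIBE because its columns carry no replicate number of the labels. With 3 libraries a group, members below 5 CPM and sites below 20 reads limit what could be tested.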
